A study of Mus musculus with 5 samples.

Results

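A set of 8 noncoding RNAs that do structural or nuclear work in most cells was followed by gene symbol in 5 total-RNA libraries of mouse dorsolateral prostate: Rn7s1, Rn7s2, Rn7sk, Rmrp, Rpph1, Terc, Malat1 and Neat1. All 8 were found among the 51912 genes listed, and 7 passed the filter on low counts, with Terc left out at 1 to 5 counts per library. The groups were 2 libraries labelled Ghr deletion, from male mice with loxP-flanked Ghr alleles (Ghrflox/flox) and 1 copy of a tamoxifen-inducible Cre at ROSA26 (ROSA26Cre-ERT2+/0), and 3 Tamoxifen-control libraries, from Ghrflox/flox males without Cre. Every mouse was 3 months old and had received tamoxifen at 250 mg/kg for 5 days, and the prostate was collected 1 month later. ROSA26 is active in most cell types, so recombination was not aimed at the prostate, and Cre itself cannot be told apart from loss of Ghr in this design. The labels number the libraries as replicates and do not say whether each came from a separate mouse. The comparison asks what loss of the growth hormone receptor does to expression in the prostate.

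Each of these RNAs acts as RNA. Rn7s1 and Rn7s2 encode 7SL, the scaffold of the signal recognition particle, which brings ribosomes making secreted and membrane proteins to the endoplasmic reticulum and so serves a secretory gland such as the prostate. Rn7sk encodes 7SK, which with the proteins Hexim1 and Larp7 holds the elongation kinase P-TEFb inactive. Rpph1 is the catalytic RNA of RNase P, which trims the leading end of transfer RNA precursors, Rmrp is the RNA of the related RNase MRP, which takes part in ribosomal RNA processing, and Terc is the template RNA of telomerase. RNA polymerase III makes 7SL, 7SK, Rmrp and Rpph1. RNA polymerase II makes Terc and the long nuclear RNAs Malat1, which gathers in nuclear speckles, and Neat1, around which paraspeckles are built.

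Sequence decides how far each RNA could be counted apart from others, and was taken from the transcripts of GENCODE release M21 on GRCm38, with those printed given 5′ to 3′ as DNA. Rn7s1 (ENSMUSG00000099021, plus strand, chr12:69159295-69159594) and Rn7s2 (ENSMUSG00000099250, minus strand, chr12:69361182-69361481) were the same letter for letter: 300 of 300 positions were identical and 0 differed. Rn7sk (ENSMUSG00000065037, minus strand, chr9:78175303-78175633) is shown up to base 300 of 331 with its 3 copies of GATC in capitals. Human HEXIM proteins are known to bind GAUC letters in 7SK. The capitals mark every copy of these letters and do not say which of them are bound. Rmrp (ENSMUSG00000088088, minus strand, chr4:43492788-43493058) is shown with capitals over the 124 of its 271 bases that annotated exons of Ccdc107 on the other strand also cover.
Rn7sk, bases 1 to 300: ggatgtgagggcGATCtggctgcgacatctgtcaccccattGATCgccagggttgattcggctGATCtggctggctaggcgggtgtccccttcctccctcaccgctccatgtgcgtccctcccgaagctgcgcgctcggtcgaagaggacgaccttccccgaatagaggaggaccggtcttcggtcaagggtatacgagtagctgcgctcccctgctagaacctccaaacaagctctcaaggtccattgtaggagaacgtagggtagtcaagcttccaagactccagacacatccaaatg
Rmrp: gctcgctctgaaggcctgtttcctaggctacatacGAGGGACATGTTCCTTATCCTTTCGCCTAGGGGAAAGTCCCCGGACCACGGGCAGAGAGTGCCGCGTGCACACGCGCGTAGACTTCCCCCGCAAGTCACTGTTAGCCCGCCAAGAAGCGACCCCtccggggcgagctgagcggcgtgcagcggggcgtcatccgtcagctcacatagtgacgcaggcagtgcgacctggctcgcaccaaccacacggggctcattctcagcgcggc
The GATC copies of Rn7sk start at positions 13, 42 and 64. GATC reads the same on both strands, and 68.8% of the 16517 annotated transcripts of 250 to 450 bases hold at least 1 copy, while 11.3% hold at least as many as Rn7sk.

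RSEM, which shared reads among genes by a model, gave the identical pair almost equal counts. The ratio of Rn7s2 to Rn7s1 in TPM, a level per length, was 1.01 and 0.995 in the deletion-labelled libraries and 0.994, 1.08 and 1.01 in the controls. These values overlapped (exact two-sided permutation test, p = 1). The loci lie 201587 bases apart, and the data cannot assign a 7SL read to either of them, so their summed share is given beside the separate values. At 90% identity over 80% of the length, the other annotated near copy, Gm24105, held 0 counts in each library. For Rn7sk, Rpph1, Terc, Malat1 and Neat1 no near copy was found at that setting. For Rmrp the 1 near copy is a second annotated record of the same locus, not used here.

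The other loci also bear on counting. Rpph1 (ENSMUSG00000092837, minus strand, chr14:50807449-50807767) lies within Ccnb1ip1 on the same strand, with 233 of its 319 bases in annotated untranslated exon sequence. Ccnb1ip1 held at most 6 counts in a library, or at most 0.393% of those of Rpph1. Rmrp shares bases with an antisense exon of Ccdc107, which held 170 to 578 counts per library, up to 18.3% of the Rmrp count, and since the strand setting of the counting is not given, these genes cannot be fully told apart. Terc (ENSMUSG00000064796, minus strand, chr3:96414437-96414859) overlaps no other annotated gene. Short predicted genes inside Rn7s1, Rn7s2, Malat1 and Neat1 held at most 5.75 counts in a library. Malat1 (ENSMUSG00000092341, minus strand, chr19:5795690-5802672) and Neat1 (ENSMUSG00000092274, minus strand, chr19:5824708-5845478) are neighbours, 22035 bases apart.

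The libraries held 31740687 and 32782683 expected counts in the deletion-labelled group and 19517831, 29705618 and 41553558 in the controls (replicates 1 to 3). Control replicate 2 stood apart. Its nuclear rRNA genes took 4.04% of counts against at most 0.139% in the other 4 libraries, mitochondrial rRNA took 9.91% against at most 3.49%, and protein-coding genes took 48.5% against at least 83.5%. It also had the shortest fragments as RSEM modelled them, with a median of 189 bases between length and effective length for genes over 2000 bases, against 213 to 225 bases elsewhere. Ghr itself was not lower in the deletion-labelled libraries (21.5 and 10.2 CPM, against 10.1, 11.8 and 13.2 CPM in controls, where CPM is the count scaled to a common library size), so directions here belong to the libraries as labelled. The 8 genes listed as seminal vesicle secretions, named for a neighbouring gland, took 14.6% and 22.2% of counts in deletion-labelled libraries and 37.5%, 15.4% and 25.6% in controls. They did not move together. Svs1 had 0.0453 and 7.89 CPM in deletion-labelled libraries and 32891, 22503 and 58.5 CPM in controls. Svs2 had 67693 and 118513 CPM in deletion-labelled libraries and 68521, 47303 and 140406 CPM in controls. The tissue that these RNAs came from was not tested. The prostate secretory gene Msmb was at 0 and 0.429 CPM in deletion-labelled libraries and 11.1, 112 and 0.0441 CPM in controls.

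The 7SL RNAs were the largest component among the 8. Rn7s1 and Rn7s2 together took 3.76% and 6.35% of all expected counts in the deletion-labelled libraries. They took 9.23%, 32.9% and 9.49% in control replicates 1 to 3. Both deletion-labelled libraries were thus below every control, control replicates 1 and 3 were close to each other, and control replicate 2 was far above all. The means were 5.06 ± 1.83% (SD, n = 2) and 17.2 ± 13.6% (SD, n = 3), a difference of -12.2 points, with p = 0.2 by the exact two-sided permutation test, the smallest p that 2 against 3 libraries allow. Without control replicate 2 the difference was -4.31 points and the groups still did not overlap (exact two-sided permutation p = 0.333, the smallest then possible). The part of the rRNA content and fragment length of control replicate 2 in this difference was not tested. In bulk tissue, fewer cells of a type and less RNA per cell cannot be told apart.

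**Figure D1:**
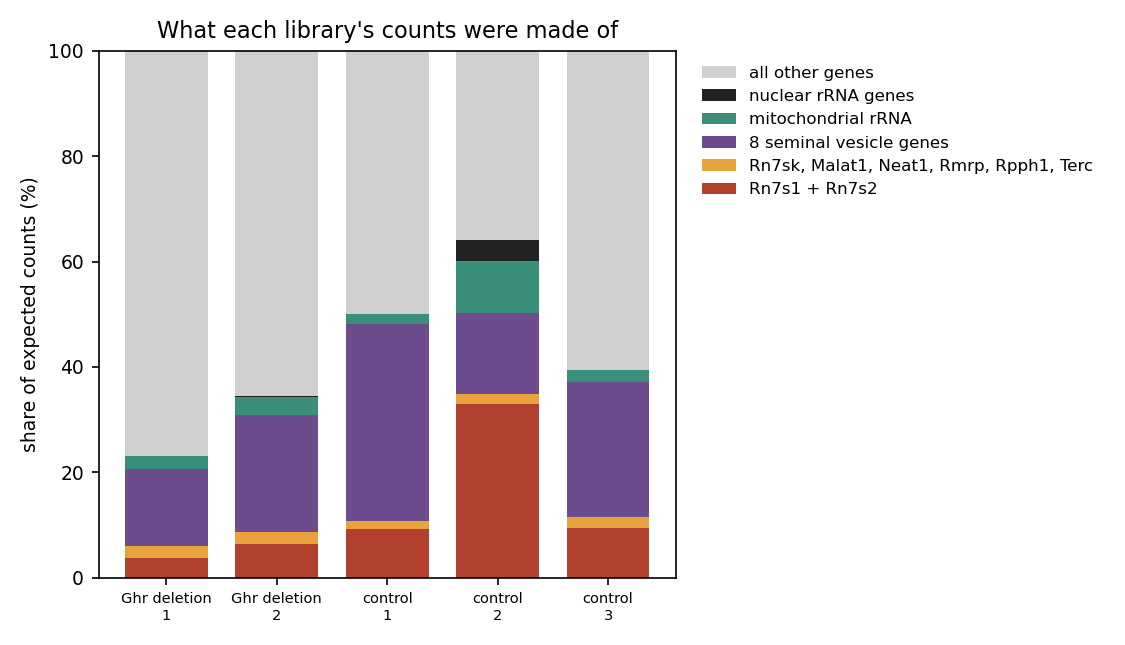
Share of expected counts (%, vertical axis) taken by the RNAs described, seminal vesicle genes and ribosomal RNA in each of the 2 Ghr deletion and 3 Tamoxifen-control libraries, stacked to 100%. Rn7s1 and Rn7s2 take 3.76% and 6.35% in the deletion-labelled libraries and 9.23%, 32.9% and 9.49% in the controls, and control replicate 2 also has the most ribosomal RNA.

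The other 6 RNAs, most of whose counts belong to Malat1 and Rn7sk, together took 2.28% and 2.32% of counts in the deletion-labelled libraries and 1.48%, 1.96% and 1.99% in the controls, a difference of 0.49 points (exact two-sided permutation p = 0.2), and the groups did not overlap. Among them Malat1 and Neat1 lay above every control by share, Rpph1 below every control (0.0118% and 0.00466% in deletion-labelled libraries and 0.0128%, 0.0827% and 0.0218% in controls), and Rn7sk, Rmrp and Terc overlapped. By share, 46.8% of all genes tested lay above every control and 1.61% below, so lying above every control was common. The 8 RNAs in all took 6.04% and 8.67% in the deletion-labelled libraries and 10.7%, 34.9% and 11.5% in the controls, a difference of -11.7 points (exact two-sided permutation p = 0.2) and of -3.74 points without control replicate 2. Counting error adds little here: the widest 95% Wilson interval of any of these shares reached 0.0171 points to either side, and such intervals cover counting error only.

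Shares move with whatever else is in a library, so the RNAs were also set on CPM scaled by TMM, which rests on the bulk of genes, and tested by edgeR's quasi-likelihood test over 18590 genes. None of the 7 tested RNAs passed at an adjusted p of 0.05 (0% of all genes were called, in either direction), and 1 of the 7, Rpph1, had an unadjusted p under 0.05, against 792 of all genes (4.26%). DESeq2 called 0 of the 7 (0.436% of all genes). With limma-voom 0 of the 7 were called, as were 0 higher and 0 lower of all 18590 genes. With the replicate number as a block, which no label says pairs the libraries, 1 of the 7 was called lower, Rmrp, against 3.09% of all genes. In 5 of the 7 the deletion-labelled libraries lay below every control on CPM, against 12.5% of all genes, and in 0 of the 7 above every control, against 10.8%. Rn7s1 and Rn7s2 count as a pair among the 5. Over the 7, the median was -1.59 on the log2 scale for deletion-labelled against control libraries, beside -0.01 over all genes tested. The identical pair enters this median as 2 values. With the pair summed to 1 gene, the middle lies between Rmrp at -1.59 and Rn7sk at -0.53. The median of the 7 was -0.64 without control replicate 2.

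For 7SL itself, Rn7s1 had 13465 and 26317 CPM in deletion-labelled libraries and 55721, 241102 and 43333 CPM in controls. The lowest control held more than either deletion-labelled library, and control replicate 2 held far more than the other controls. The log2 fold change was -2.51 (SE 1.25, 95% interval -5.60 to 0.58, adjusted p = 0.874 by edgeR), and -1.32 without control replicate 2. Rn7s2, of the same sequence, had 13594 and 26179 CPM in deletion-labelled libraries and 55404, 260602 and 43573 CPM in controls. These values were close to those of Rn7s1, with the widest gap in control replicate 2 (260602 against 241102 CPM). Summed to 1 gene before the test, the pair had a log2 fold change of -2.55 (adjusted p = 0.874 by edgeR).

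Among the other polymerase III RNAs, Rpph1 differed by more and Rn7sk by less. Rpph1 had 84.9 and 38.5 CPM in deletion-labelled libraries and 154, 1261 and 200 CPM in controls. The groups did not overlap, and control replicate 2 was again far above the rest. Its log2 fold change was -3.12 (SE 1.13, 95% interval -5.89 to -0.35, unadjusted p = 0.0330, adjusted p = 0.874 by edgeR), and -1.52 without control replicate 2. Rmrp had 64.3 and 69.4 CPM in deletion-labelled libraries and 105, 394 and 104 CPM in controls. Control replicates 1 and 3 were nearly level, control replicate 2 was far above them, and both deletion-labelled libraries were lower than every control. The log2 fold change was -1.59 (SE 0.68, adjusted p = 0.874 by edgeR), and -0.64 without control replicate 2.

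Rn7sk, the RNA of the P-TEFb inhibitor, had 5215 and 5900 CPM in deletion-labelled libraries and 6258, 9996 and 7801 CPM in controls. The groups did not overlap, though the lowest control was close to the higher deletion-labelled library. The log2 fold change was -0.53 (SE 0.50, 95% interval -1.77 to 0.71, adjusted p = 0.874 by edgeR), and -0.34 without control replicate 2.

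Terc, the telomerase RNA, was hardly sampled. It had 2 and 5 counts in deletion-labelled libraries and 1, 4 and 3 counts in controls. Summed over libraries these were 7 counts, or 0.108 CPM of unscaled total counts (exact 95% Poisson interval 0.0436 to 0.224), in the deletion-labelled group and 8 counts, or 0.0881 CPM (0.0380 to 0.174), in the controls. The intervals cover counting error only and overlap, so no difference was detectable at this depth.

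**Figure D2:**
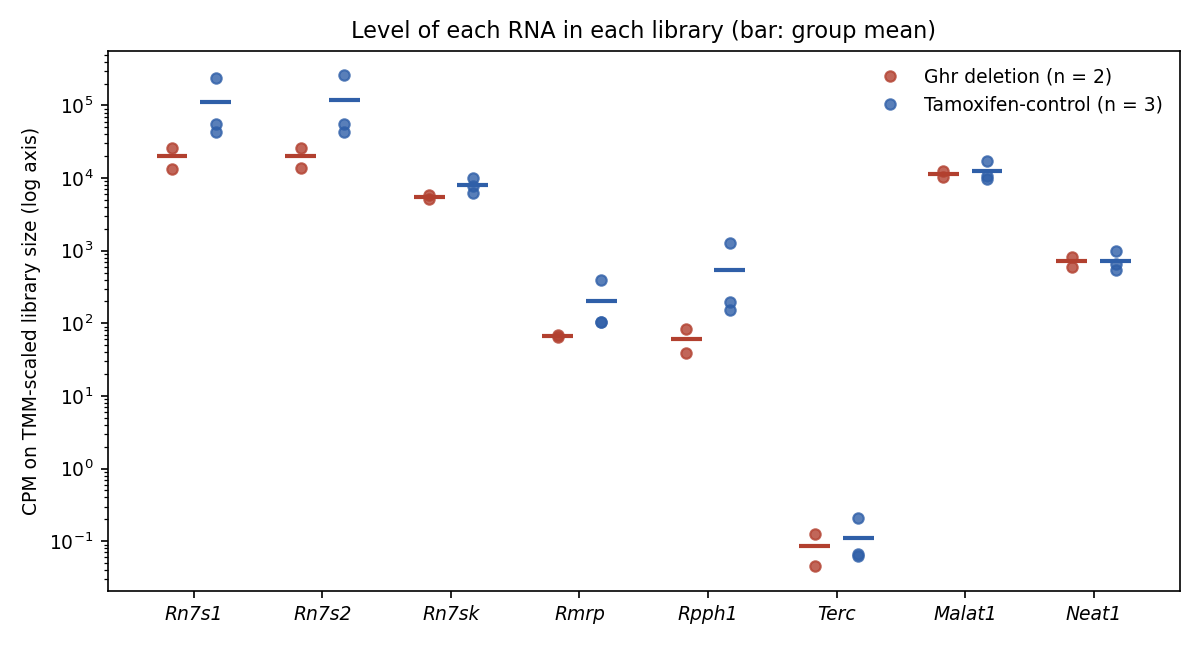
CPM on the TMM-scaled library size (vertical log axis) of the 8 RNAs, each point 1 library, with 2 Ghr deletion libraries (left of each pair) and 3 Tamoxifen-control libraries (right), and a bar at each group mean. Rn7s1, Rn7s2, Rn7sk, Rmrp and Rpph1 lie lower in both deletion-labelled libraries than in each control, and Malat1 and Neat1 overlap.

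The long nuclear RNAs overlapped between groups on CPM. Malat1 had 10215 and 12567 CPM in deletion-labelled libraries and 10642, 17199 and 9599 CPM in controls. Its lowest value was in control replicate 3 and its highest in control replicate 2. The log2 fold change was -0.13 (SE 0.59, 95% interval -1.57 to 1.31, adjusted p = 0.963 by edgeR). Neat1 had 820 and 603 CPM in deletion-labelled libraries and 647, 1002 and 542 CPM in controls, again with the extremes in control replicates 3 and 2. Its log2 fold change was -0.04 (SE 0.38, 95% interval -0.98 to 0.90, adjusted p = 0.983 by edgeR). Without control replicate 2 the values were 0.17 for Malat1 and 0.26 for Neat1, so neither has a fixed sign, and the intervals leave room for differences in either direction.

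**Figure D3:**
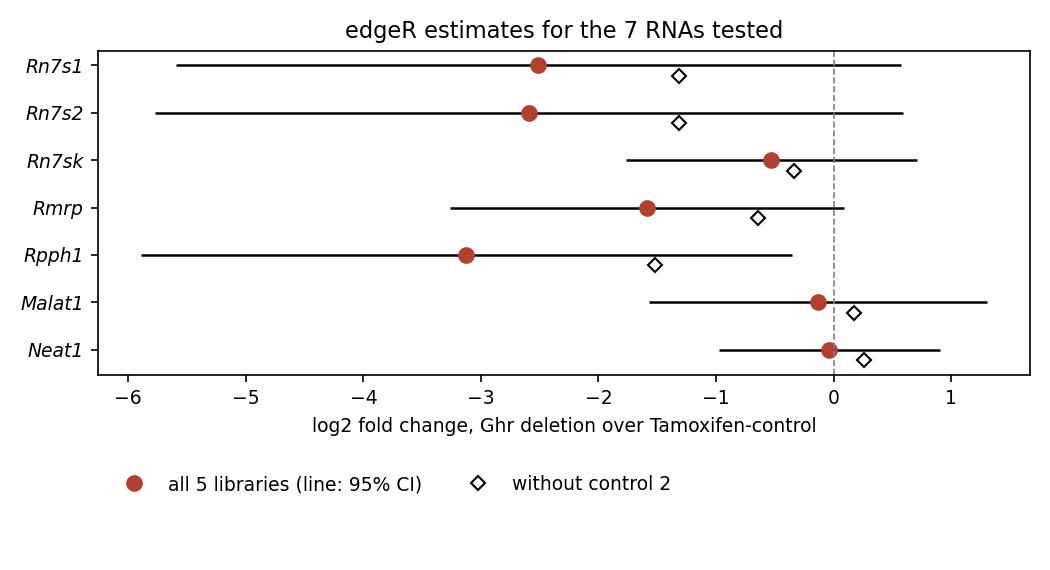
Log2 fold change (horizontal axis) of Ghr deletion over Tamoxifen-control for the 7 RNAs tested by edgeR, with the 95% interval as a line and the value without control replicate 2 as a diamond. Estimates run from -3.12 for Rpph1 to -0.04 for Neat1, and each moves towards or past 0 without control replicate 2.

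The scale decided the direction for Malat1, Neat1, Rn7sk and Rmrp, and for Rpph1 whether the groups overlapped. Malat1 took 1.42% and 1.52% of counts in deletion-labelled libraries and 0.884%, 1.13% and 1.05% in controls, above every control. Neat1 took 0.114% and 0.0729% in deletion-labelled libraries and 0.0537%, 0.0657% and 0.0592% in controls, also above every control, whereas both overlapped on CPM. By share of counts, 2 of the 7 lay above every control, against 46.8% of all genes, and 3 lay below (Rn7s1, Rn7s2 and Rpph1), against 1.61%. Scaling by total counts alone moved the median over all genes to 0.585 on the log2 scale, and relative to that shift Malat1 was at -0.06 and Neat1 at 0.06. For Rn7sk the shares were 0.725% and 0.714% in deletion-labelled libraries and 0.52%, 0.656% and 0.852% in controls, and they overlapped.

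On TPM, Malat1 had 3355 and 2820 in deletion-labelled libraries and 1176, 629 and 1444 in controls. Neat1 had 151 and 62.6 TPM in deletion-labelled libraries and 42.1, 38.2 and 39.4 TPM in controls, which were close to each other. Rn7sk had 50904 and 39840 TPM in deletion-labelled libraries and 20367, 12713 and 38743 TPM in controls. All 3 lay above every control on this scale, as did 78.5% of all genes, and on log2(TPM + 1) the median difference over all genes was 0.87. Rn7s1 and Rn7s2, the 2 of the 7 that lay below every control, were among the 0.307% of genes that did so on TPM. The difference on log2(TPM + 1) was 1.59 for Malat1, 1.27 for Neat1 and 1.06 for Rn7sk, and none passed (limma-trend adjusted p = 0.231, 0.215 and 0.440). Set against the shift of all genes these became 0.72, 0.39 and 0.19, and Rn7s1 stood at -1.44. Rmrp and Rpph1, below every control on CPM, overlapped on TPM. Rmrp had 1107 and 808 TPM in deletion-labelled libraries and 592, 825 and 904 TPM in controls. Its difference on log2(TPM + 1) was 0.31, or -0.56 set against that shift. Rpph1 had 911 and 285 TPM in deletion-labelled libraries and 550, 1744 and 1089 TPM in controls (-0.99, or -1.86 set against that shift).

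**Figure D4:**
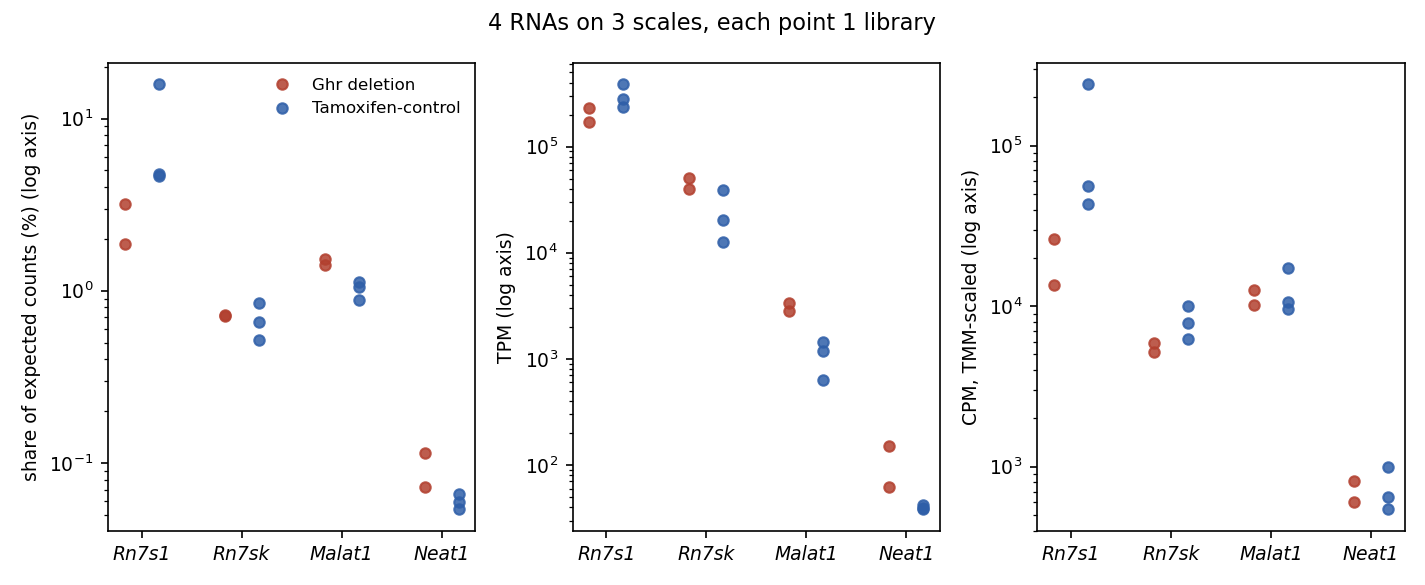
Rn7s1, Rn7sk, Malat1 and Neat1 as share of expected counts, TPM and TMM-scaled CPM (log axes), each point 1 library, with Ghr deletion left of Tamoxifen-control. Rn7s1 is lower in both deletion-labelled libraries on each scale, Malat1 and Neat1 are higher by share and TPM and overlap on CPM, and Rn7sk overlaps by share, is higher on TPM and lower on CPM.

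TPM also put 7SL at a level that its counts do not show. RSEM gave the 300-base transcripts an effective length of 88.6 and 96.4 bases in deletion-labelled libraries and 96.0, 114 and 90.5 bases in controls, and TPM divides by that length. Rn7s1 and Rn7s2 then made up 34.4% and 45.6% of all TPM in deletion-labelled libraries and 46.7%, 80.4% and 55.9% in controls (difference -21.0 points, exact two-sided permutation p = 0.2). In each library they were the 2 highest genes by TPM. The higher deletion-labelled share was close to the lowest control.

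Within the 8, the order per length was 7SL, then Rn7sk, each without overlap with the next over the 5 libraries. Malat1 (629 to 3355 TPM), Rpph1 (285 to 1744 TPM) and Rmrp (592 to 1107 TPM) overlapped. In control replicate 2 Malat1 was below both Rpph1 (1744 TPM) and Rmrp (825 TPM), and in the other 4 libraries above both. Neat1 (38.2 to 151 TPM) lay below these and Terc (0.12 to 0.5 TPM) last.

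Ratios within a library do not depend on scaling between libraries. Rmrp over Rpph1, the RNAs of the paired RNases, had a TPM ratio of 1.22 and 2.83 in deletion-labelled libraries and 1.08, 0.473 and 0.83 in controls. Each deletion-labelled ratio was above every control, by little in replicate 1, and the difference of mean log2 ratios was 1.31 (exact two-sided permutation p = 0.2, the smallest possible). Without deletion-labelled replicate 2 it was 0.69. Neat1 over Malat1 had a ratio of 0.045 and 0.0222 in deletion-labelled libraries and 0.0358, 0.0608 and 0.0273 in controls, with a difference of mean log2 ratios of -0.30 (exact two-sided permutation p = 0.8). The groups overlapped, and the sign of the difference turned when expected counts replaced TPM (0.09). Malat1 as a share of 7SL, on TPM, was 0.977% and 0.618% in deletion-labelled libraries and 0.252%, 0.0783% and 0.258% in controls. That ratio was looked at after the levels were seen and is given without a test.

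Malat1 and Neat1 have transcripts of several lengths, and RSEM's mean transcript length per gene, weighted by estimated abundance, differed between libraries. For Neat1, whose annotated transcripts include a 20771-base and a 3004-base form, it was 6331 and 8270 bases in deletion-labelled libraries and 6402, 4982 and 8234 bases in controls. For Malat1, with a full form of 6983 bases, it was 3648 and 3945 bases in deletion-labelled libraries and 3862, 5189 and 4095 bases in controls. Both overlapped between groups, and control replicate 2 had the shortest Neat1 and the longest Malat1 mean.

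The profiles over the 5 libraries can be set side by side by the root mean square difference of centred log2 CPM, a distance in log2 units. Malat1 and Neat1 were 0.241 apart and Malat1 and Rn7sk 0.27 apart. Rn7s1 was 0.535 from Rmrp, 0.761 from Rpph1 and 1.17 from Malat1. Of 9062 other genes whose mean log2 CPM reached 3, those nearest to Malat1 included Mccc1 (0.037) and Dennd1a (0.0476), and those nearest to Neat1 were Rhbdd2 (0.0539), Gm38042 (0.0614) and Gm16063 (0.0903). Nearest to Rn7sk were Hoxb3 (0.0477), Slc39a13 (0.0485) and Tbx2 (0.049), and nearest to Rmrp were Phldb1 (0.0934), Lrrc45 (0.11) and Ttll10 (0.143). No gene outside the 8 came as near to 7SL or Rpph1. Tnk2 (0.441), Zfp219 (0.476) and Mtcl1 (0.479) were nearest to Rn7s1, Tnk2 (0.475), Lars2 (0.475) and Gm26917 (0.477) to Rn7s2, and Mtcl1 (0.766), Lars2 (0.82) and Plcd3 (0.832) to Rpph1. These distances rest on 5 libraries and carry no test.

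The proteins that bind these RNAs did not pass the test in any list (0 called in each by edgeR, background 0%). Of 10 tested signal recognition particle proteins and receptor subunits, 3 lay below every control on CPM (12.5% of all genes) and 1 had an unadjusted p under 0.05 (4.26% of all genes), with a median log2 fold change of -0.15. Srprb, the membrane anchor subunit of the particle's receptor, had 32.1 and 34.1 CPM in deletion-labelled libraries and 53.0, 41.7 and 44.3 CPM in controls (log2 fold change -0.48, adjusted p = 0.874 by edgeR). Srp68 and Srp72, which bind 7SL as a pair, stood at -0.39 (SE 0.21) and -0.20 (SE 0.20) on the log2 scale.

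Of 7 tested proteins of the 7SK particle and P-TEFb, 1 lay above every control (10.8% of all genes) and 3 below (12.5%), with a median of -0.07 and 0 at an unadjusted p under 0.05. Cdk9, the kinase that 7SK restrains, had 15.6 and 17.5 CPM in deletion-labelled libraries and 19.7, 31.8 and 18.1 CPM in controls (log2 fold change -0.49, SE 0.30). Its partner cyclin Ccnt1 had 0.24 (SE 0.19) and the inhibitor Hexim2 had -0.54 (SE 0.46). Cdk9 was at -0.19 and Hexim2 at -0.26 without control replicate 2. Of 10 tested proteins of RNase P and RNase MRP, 8 had a negative and 2 a positive log2 fold change, with a median of -0.28 and 0 at an unadjusted p under 0.05. Pop1 (-0.43, SE 0.30), Pop7 (-0.45, SE 0.43) and Rpp30 (0.39, SE 0.37), all subunits of these enzymes, had the smallest p. Pop7 was at -0.16 and Rpp30 at 0.18 without control replicate 2, and without deletion-labelled replicate 2 Pop1 was at -0.25. Rpp25 was not tested, with 0 to 2 counts per library.

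Of 7 tested telomerase and H/ACA proteins 0 had an unadjusted p under 0.05, and the median was -0.11. Nhp2 (-0.35, SE 0.24), Dkc1 (0.26, SE 0.29) and Wrap53 (-0.22, SE 0.25), a core protein, the pseudouridine synthase and the Cajal body factor of these particles, had the smallest p. Of 10 tested paraspeckle proteins 0 had an unadjusted p under 0.05, with a median of -0.04, and Dazap1 (-0.60, SE 0.36), Hnrnph3 (-0.29, SE 0.22) and Rbm14 (-0.26, SE 0.28) had the smallest p. Dazap1 was at -0.22, Hnrnph3 at -0.16, Rbm14 at -0.04 and, among the telomerase proteins, Dkc1 at 0.05 without control replicate 2. Of 10 tested nuclear speckle proteins 0 had an unadjusted p under 0.05, with a median of -0.10. Srrm2, a scaffold of speckles, had 370 and 519 CPM in deletion-labelled libraries and 490, 1471 and 395 CPM in controls (log2 fold change -0.82, SE 0.65). Without control replicate 2 it was 0.01. The splicing factor Srsf3 (0.28, SE 0.22) and the speckle protein Pnisr (-0.31, SE 0.36) followed.

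Of 28 tested subunits and factors of RNA polymerase III, 13 had a positive and 15 a negative log2 fold change, with a median of -0.04 and 0 at an unadjusted p under 0.05. On CPM 6 of the 28 lay below every control (12.5% of all genes) and 2 above (10.8%). Brf1, an initiation factor used at transfer RNA genes, had 23.7 and 26.7 CPM in deletion-labelled libraries and 37.6, 104 and 30.8 CPM in controls (log2 fold change -1.19, SE 0.57, and -0.44 without control replicate 2). The subunit Polr3e (-0.57, SE 0.27, and -0.37 without control replicate 2) and the TFIIIC subunit Gtf3c3 (0.32, SE 0.19) followed. Of 14 tested other long noncoding RNAs 0 had an unadjusted p under 0.05, with a median of -0.01 and with Dleu2 at 0.49 (SE 0.27), Firre at -0.93 (SE 0.62, and -0.09 without control replicate 2) and Miat at -2.80 (SE 2.30). Miat had 0.0907 and 1.99 CPM in deletion-labelled libraries and 0.493, 21.2 and 0.11 CPM in controls. Without control replicate 2 its log2 fold change was 1.96. Dleu2 was at 0.06 without deletion-labelled replicate 1.

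**Figure D5:**
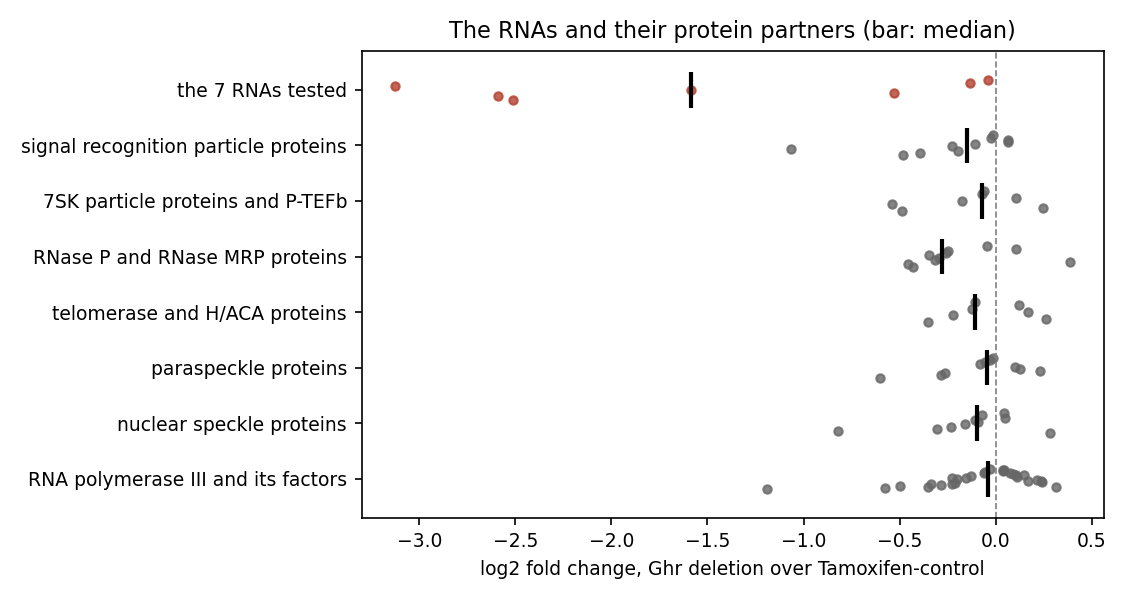
Log2 fold change (horizontal axis) of Ghr deletion over Tamoxifen-control for the 7 RNAs tested and for each tested gene of 7 lists of their protein partners, each point 1 gene, with a bar at the median. The RNAs have a median of -1.59, in which the identical Rn7s1 and Rn7s2 are 2 of the 7 values, and the medians of the protein lists run from -0.28 to -0.04. Without control replicate 2 these were -0.64 for the RNAs and -0.30 to 0.07 for the lists.

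Of the lists of tissue and cell markers, 5 of 8 seminal vesicle genes had an unadjusted p under 0.05 (4.26% of all genes), among them Svs3b (log2 fold change -11.5), Svs6 (-10.2) and Svs3a (-12.1). Svs3b had 0.499 and 2.60 CPM in deletion-labelled libraries and 9002, 4290 and 38.8 CPM in controls, so control replicate 3 was far below the other controls. Of 12 prostate luminal markers 1 had an unadjusted p under 0.05, with Msmb at -7.60, Azgp1 at -3.71 and Folh1 at -2.45. Msmb was at -4.68 and Azgp1 at -0.99 without control replicate 2. Of 14 genes listed as stromal, muscle and blood markers, 8 had a positive and 6 a negative log2 fold change. An unadjusted p under 0.05 was found for 1, with Alb at -3.39, Dcn at 1.21 and Hba-a1 at -0.92. Without control replicate 2 Alb was at -2.53, Dcn at 0.82 and Hba-a1 at -0.51. By edgeR on all 5 libraries 0 of the genes in these marker lists passed over all genes, whereas DESeq2 called Svs3b, Svs6 and Svs3a lower (adjusted p = 6.4e-06, 6.77e-05 and 0.000107). The summed level of the luminal markers was 967 and 914 CPM in deletion-labelled libraries and 830, 2918 and 808 CPM in controls, highest in control replicate 2 as 7SL was. The summed seminal vesicle level was 104922 and 183137 CPM in deletion-labelled libraries and 451426, 234238 and 234610 CPM in controls. The part of tissue make-up in the 7SL difference was not tested.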

How the data were processed

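Per the labels' protocols, libraries were prepared from flash-frozen tissue with the Illumina TruSeq Stranded kit for total RNA. STAR 2.5.3a, RSEM 1.3.0, bcl2fastq 2.20.422 and GRCm38 are named in the submitters' processing notes. Annotation release and strand setting: not given in the sources used here. Each library has 1 deposited RSEM table, which per the file headers holds expected counts, in which reads that fit several genes are shared out, TPM, length and effective length in bases.

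Expected counts were rounded, filtered with filterByExpr, scaled by TMM and tested by quasi-likelihood in edgeR 4.0.16 (R 4.3.3), group as the only term, with Benjamini-Hochberg adjustment at 0.05 over 18590 genes. CPM uses the TMM-scaled library size. SE came from the fold change and its F statistic. Single values per library were compared by exact permutation in SciPy 1.17.1. Sequences were aligned with BLAST+ 2.17.0. Symbols matched 99.5% of gene identifiers. The edgeR step was tested on simulated data.

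Members, lists, tests and the naming rule (all 8 RNAs, and the 3 genes of each partner list with the smallest p, and 3 nearest profiles) were chosen with earlier results of these data known. Replicate numbers come from the titles, which do not say whether libraries came from separate mice, so p-values measure only the spread between these libraries, which may be technical. Alternatives were DESeq2 1.42.0, limma 3.58.1 (voom, and trend on log2 TPM with a pseudocount of 1 or 0.1), other scalings, filters and offsets, each library left out, and the replicate number as a block. Scaling without the 8 RNAs and rRNA, and by protein-coding genes, were added after seeing the data. A nearest profile and a sequence are not reported here.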

Additional observations from a re-analysis of the deposited data

How the results depend on the processing

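The main limits are 2 against 3 libraries, for which no exact test can pass, and control replicate 2. By edgeR 0 genes were called higher and 0 lower. This became 2 higher with no low-count filter, 20 higher and 61 lower with DESeq2, 2234 and 60 on log2(TPM + 1) and 686 and 47 on log2(TPM + 0.1), and leaving out 1 library gave 0 to 15 higher and 0 to 33 lower, with 15 and 33 without control replicate 3. With the replicate number as a block 552 were higher and 574 lower, and of the 8 RNAs 1 was called lower, Rmrp (adjusted p = 0.0345, log2 fold change -1.61). Same-numbered libraries deviated together with correlations of 0.281 and 0.296 over 18590 genes, but only 2 such pairs exist and no label says that a number marks a shared animal or day. In all, 12 named genes passed in 25 gene and setting pairs, counted only where the sign was that of the estimate from all 5 libraries without a block. With the block these were Rmrp, Brf1, Miat, Svs3b, Svs6, Svs3a, Msmb, Azgp1, Folh1, Alb, Dcn and Hba-a1. The other 13 pairs were Svs3b, Svs6 and Svs3a with DESeq2 and on both TPM scales, Msmb on both TPM scales, Dcn on log2(TPM + 1) and Svs6 without control replicate 3. No other setting run called any of the 8, and over the 7 tested and all settings the adjusted p ran from 0.0345 to 1. A lone library left in an arm is assumed to vary like the others.

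Signs turned in 30 of 1035 alternatives run over 53 results, and the cause was not tested. On log2(TPM + 1), set against the shift of all genes, Rn7sk was at 0.19, Malat1 at 0.72, Neat1 at 0.39, Srp68 at 0.12, Srp72 at 0.36, Cdk9 at 0.0323, Nhp2 at 0.0517, Dazap1 at 0.00563, Hnrnph3 at 0.29, Rbm14 at 0.12 and Pnisr at 0.34. On log2(TPM + 0.1) Malat1 was at 0.26, with effective lengths as offsets at 0.11. Neat1 was at 0.0590 with library size only, relative to the median, and at 0.00588 with no low-count filter. Rny3 was at -0.0275 with limma-voom. With 1 library left out, log2 fold changes ran from -0.30 to 0.17 for Malat1, -0.28 to 0.26 for Neat1, -3.06 to -1.32 for Rn7s1, -1.16 to 0.0071 for Srrm2, -0.51 to 0.066 for Pnisr, -0.41 to 0.53 for Rny3, -6.25 to 1.96 for Miat, -0.20 to 0.88 for Ghr, -1.50 to -0.44 for Brf1, -1.26 to -0.09 for Firre, -0.68 to -0.34 for Rn7sk, -1.91 to -0.64 for Rmrp and -3.81 to -1.52 for Rpph1. The log2 ratio of Rn7s2 over Rn7s1 differed by -0.057 to 0.0032 that of Rmrp over Rpph1 by 0.69 to 1.92, and that of Neat1 over Malat1 by -0.81 to 0.21, and by 0.0856 on expected counts.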

Other observations

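Other small RNA polymerase III transcripts had few counts in these libraries, beside the many of 7SL and 7SK. The Y RNAs Rny1 and Rny3, which bind the Ro protein, had 42 and 82 counts summed over the 2 deletion-labelled libraries and 38 and 81 over the 3 controls, with log2 fold changes of 0.24 (SE 0.53) and 0.13 (SE 0.52). The vault RNA Vaultrc5 had 2 and 11 counts in deletion-labelled libraries and 4, 20 and 13 in controls (-1.66 on the log2 scale with SE 1.05, and edgeR's adjusted p = 0.874), highest in control replicate 2 and at -0.75 without it. Rprl1 and Rprl2, named as relatives of the RNase P RNA, held 0 counts, and Rprl3 held 9.79 in 1 deletion-labelled library only. Rny1 and Rny3 are listed at 0 TPM in every library although reads were counted for them, since their transcripts of 112 and 102 bases had an effective length of 0. Vaultrc5, at 143 bases and an effective length of up to 3.95 bases, reached 81.8 TPM on at most 20 counts.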
